A study of Mus musculus with 18 samples.

Results

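Scavenger receptors are cell-surface or lysosomal proteins that bind modified lipoproteins, microbes, dead cells and other altered material. 7 genes of this group were followed in mouse eosinophils: *Marco*, *Msr1*, *Cd36*, *Olr1*, *Scarb1*, *Scarb2* and *Cd163*. They were chosen by name, as the genes whose Ensembl identifier carries one of these symbols in the GRCm38 annotation. All 7 were found, among 54232 genes listed in both layouts of the count files. The study asked how eosinophil transcripts change under stimuli linked to type 1 and type 2 immunity. The study's methods describe CEL-Seq2, which reads the 3′ end of transcripts, and the labels also name an RNA-seq run on another instrument without saying for which libraries. The 18 libraries fell into 6 groups of 3.

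The cells came from C57BL/6 NJ.1638 mice, which carry an *Il5* transgene and therefore hold many eosinophils, so every group, controls included, shares this background of excess IL-5. Cells were washed from the peritoneal cavity and enriched by removing cells that bound anti-Thy1.2 or anti-B220 beads, a step directed at T and B cells. The study states that purity was checked by flow cytometry and that cells were used above set limits of purity and viability. It adds that lymphocytes made up most of the cells that remained beside eosinophils. The cells were cultured in DMEM with fetal calf serum. The first set held 12 libraries: unstimulated cells (replicates a, b and c), cells given heat-inactivated *E. coli* for 18 h, cells given IFN-γ at 50 ng/ml for 18 h, and cells given both for 18 h. The second set held 6 libraries: unstimulated cells (replicates d, e and f) and cells given IL-4 at 100 ng/ml for 18 h. The culture time of the unstimulated cells, and the age and sex of the mice, were not found in the labels or methods. Total gene counts ran from 1523808 to 2734041 per library in the first set and from 3625036 to 6482289 in the second. Levels are given as CPM, the count of a gene relative to all gene counts of its library after scaling within each set, so a level in the first set is not set against a level in the second.

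Scavenger receptors are grouped into classes by structure. Class A receptors are trimers with a collagen-like stem, class B receptors cross the membrane at both ends, class E receptors have a lectin-like head, and class I receptors carry repeated cysteine-rich domains. They are best known from macrophages, where they take up oxidised lipoproteins, bacteria and haemoglobin, and several are widely used to tell activation states of macrophages apart.

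Eosinophil identity was checked first. Of 10 eosinophil markers, 6 to 8 exceeded 3 counts in each library of the first set and 9 to 10 in each library of the second, and their summed level ran from 2301 to 3341 CPM and from 2932 to 4078 CPM. *Ccr3*, the eotaxin receptor, was the most abundant of them in all 18 libraries. In the first set its counts, 2258 to 3576, lay near a ceiling on counts that those libraries show, so its levels there were not ranked. *Siglecf* and *Il5ra* were also present, but the granule protein genes *Epx* and *Prg3* had at most 4 and 3 counts in any library of the first set. Marker levels themselves moved with the stimuli. Of 6 tested in the first set, 2 rose and 2 fell with *E. coli*, 1 and 4 with IFN-γ and 2 and 3 with both, and of 10 tested in the second 4 rose and 1 fell with IL-4, against 30.2%, 31.6%, 49.0% and 10.3% of all genes called. *Siglecf* fell under *E. coli*, IFN-γ and both together, with log2 fold changes of -0.68, -0.70 and -1.55, and rose with IL-4 by 0.39 (edgeR adjusted p = 0.0384). That rise was lost without a filter on low counts (0.36) and without unstimulated replicate d or f or IL-4 replicate 1, 2 or 3 (0.35, 0.38, 0.39, 0.39 and 0.36). Also lost with IL-4 were the rise of *Prg2* (0.83) without d or f or IL-4 replicate 1, 2 or 3 (0.72, 0.69, 0.80, 0.88 and 0.83), that of *Il5ra* (0.60) without f or IL-4 replicate 1, 2 or 3 (0.60, 0.57, 0.63 and 0.58) and the fall of *Ccr3* (-0.72) without IL-4 replicate 1 or 3 (-0.70 and -0.70). With IFN-γ the rise of *Gata1* (0.38) was lost without unstimulated replicate a (0.33), and the fall of *Il5ra* (-0.37) in 8 of 12 alternatives, among them those without unstimulated replicate a or c or IFN-γ replicate 1, 2 or 3 (-0.25, -0.39, -0.43, -0.26 and -0.39). *Ear6*, which rose with both (0.52), did not without unstimulated replicate a or c or replicate 2 of the combination (0.38, 0.48 and 0.43).

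Macrophage markers were present in every library. Of 13 such genes, 11 to 13 exceeded 3 counts per library in the first set and 12 to 13 in the second. Their summed level was 2779.5, 2773 and 2812 CPM in unstimulated cells a, b and c, and 2119.8, 1933 and 2840.4 CPM with *E. coli*. It was 3424, 3250 and 3654 CPM with IFN-γ, and 2923, 3006 and 3709 CPM with both. The unstimulated and *E. coli* groups overlapped, while every library given IFN-γ alone or both stimuli stood above every unstimulated library. In the second set the sum was 4240.4, 4766 and 5367 CPM in unstimulated cells d, e and f, and 3358, 3298 and 3832 CPM with IL-4, without overlap. The most abundant of the 13 was *Adgre1* or *Lyz2*, depending on the library. *Adgre1* encodes F4/80, which mouse eosinophils carry too. Without *Adgre1* the sum was 2014, 1775 and 1916 CPM in cells a, b and c and 1822, 2067 and 2458 CPM with both stimuli, so these groups overlapped. At 2320, 2156 and 2298 CPM the IFN-γ libraries still lay above cells a, b and c. Those with *E. coli*, at 1094.5, 1023 and 1764 CPM, then lay below them without overlap. *Mrc1* was at 0 in 2 libraries, and none of the other 12 was at 0 in any of the 18. The complement genes *C1qa*, *C1qb* and *C1qc*, together 217 to 714 CPM in the first set and 1319.8 to 2016 CPM in the second, are defining macrophage genes. The part of macrophage RNA in the results for the scavenger receptors was not tested. In bulk RNA, fewer cells of a type and less of a transcript in each cell cannot be told apart.

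**Figure D1:**
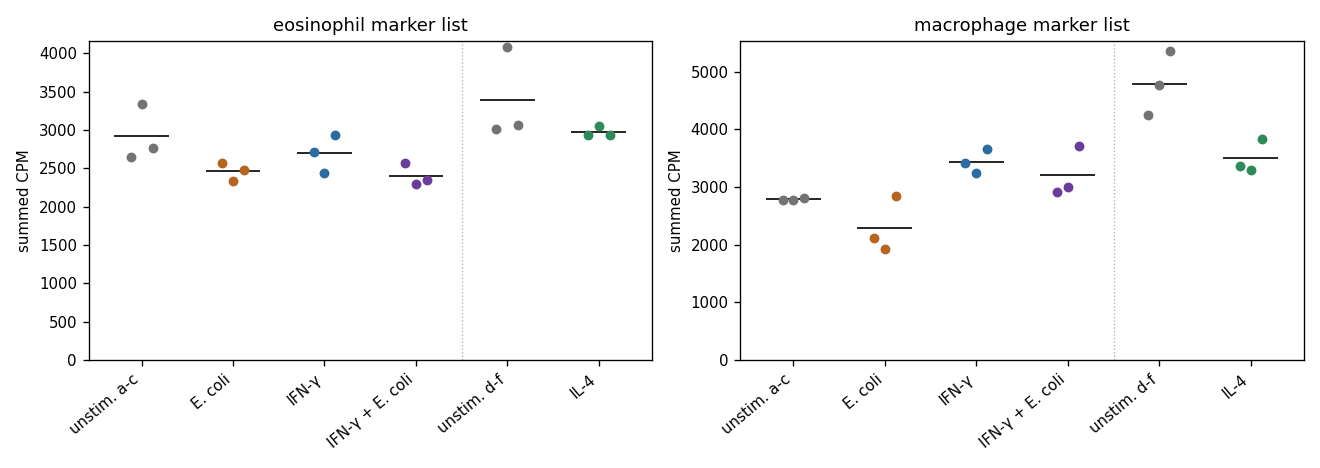
Summed CPM of 10 eosinophil markers (left) and of 13 macrophage markers (right) in each of 18 libraries. Points are libraries, black lines are group means, and the dotted line parts the first set from the second; both lists were present in every library, and the macrophage sum was lower in all 3 IL-4 libraries than in unstimulated cells d, e and f.

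Other cell types were covered by shorter lists. B cell markers summed to 38.9 to 213 CPM in the first set and 23.6 to 68.1 CPM in the second. The corresponding ranges were 6.64 to 71.8 and 6.60 to 20.7 CPM for mast cells, 3.27 to 8.88 and 1.29 to 5.87 CPM for T cells, and 5.67 to 10.9 and 4.29 to 17.8 CPM for dendritic cells. Neutrophil markers summed to 329 to 730 and 729 to 1987 CPM, platelet markers to 373 to 607 and 527 to 744 CPM, erythroid markers to 45.5 to 157 and 74.1 to 105 CPM, and mesothelial and endothelial markers to 45.3 to 161 and 78.5 to 149.7 CPM. The last list summed to 96.6, 83.1 and 89.0 CPM in unstimulated cells a, b and c. With *E. coli* it was at 150, 155 and 161 CPM. It went from 78.5, 96.0 and 87.8 CPM in cells d, e and f to 149.7, 149.4 and 149.5 CPM with IL-4. *Pecam1* led it in every library and rose with *E. coli* and IL-4 in every alternative, leaving aside a factor of 2. Its fall with IFN-γ (-0.49) was lost in some, among them without IFN-γ replicate 2 (-0.26). Without *Pecam1* the list summed to 1.11, 1.89 and 2.87 CPM in cells a, b and c and to 0.81, 0.66 and 0.49 CPM with *E. coli*. In the second set that remainder was 1.11, 1.65 and 3.38 CPM in cells d, e and f and 1.70, 0.99 and 1.29 CPM with IL-4. *Msln*, *Wt1* and *Krt19* had at most 3 counts in every library, so the sums above were almost all *Pecam1*.

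Platelet and neutrophil lists moved in different directions from gene to gene. Of the 5 platelet markers, *Gp9* and *Gp1bb* were at 0 in every library, and *Pf4*, which macrophages also express, led the list except in IL-4 replicates 1 and 2, where *Itga2b* did. The list without its most abundant gene summed to 90.7, 113 and 96.8 CPM in unstimulated cells a, b and c, 181, 169 and 155 CPM with *E. coli*, 157, 190.4 and 200.02 CPM with IFN-γ and 238, 239.95 and 268 CPM with both. *Ppbp* rose by 2.86, 3.53 and 4.23 on the log2 scale with *E. coli*, IFN-γ and both, and by 3.49, 4.17 and 4.87 without unstimulated replicate c. It fell with IL-4, at -3.67, and all 4 calls were kept in every alternative, with the rule on a factor of 2 left aside. *Pf4* fell with IFN-γ (-0.75), a call lost by DESeq2 and without unstimulated replicate a or IFN-γ replicate 1, 2 or 3 (-0.42, -0.80, -0.68 and -0.72). *Itga2b* fell with both (-0.40), a call lost by DESeq2 and without unstimulated replicate a or b or replicate 1 or 2 of the combination (-0.44, -0.28, -0.41 and -0.31). With IL-4 1 platelet marker rose without unstimulated replicate e and 2 fell without IL-4 replicate 3.

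*Retnlg* led the neutrophil list in all 18 libraries, and *Mpo*, *Elane*, *Ngp*, *Camp* and *Ltf* were each at 0 in some. That list of 9 summed to 555, 683 and 547 CPM in unstimulated cells a, b and c, 351, 339 and 401 CPM with *E. coli*, 675, 621 and 729.9 CPM with IFN-γ and 329, 394 and 422 CPM with both. In the second set it summed to 1987, 1938 and 1670.4 CPM in cells d, e and f and 776, 806 and 729 CPM with IL-4. *Retnlg* fell with *E. coli*, both and IL-4 (-1.02, -0.90 and -1.30). Without it the list summed to 12.6, 12.6 and 19.7 CPM in cells a, b and c, 61.2, 45.8 and 128 CPM with *E. coli*, 65.0, 58.0 and 70.8 CPM with IFN-γ and 49.3, 66.4 and 100.2 CPM with both, and to 17.1, 18.8 and 19.0 CPM in cells d, e and f and 14.6, 17.0 and 24.8 CPM with IL-4. *S100a8* rose with *E. coli*, IFN-γ and both (3.06, 2.20 and 2.71), and *Ly6g* with IFN-γ and both (2.27 and 1.63). These calls were kept in every alternative that tested the genes, with the rule on a factor of 2 left aside. The part of these and the other marker genes in the results was not tested.

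Most B cell markers fell with *E. coli* and IFN-γ, and most of those tested rose with IL-4. All 5 fell with *E. coli*, from a sum of 213, 191 and 116 CPM to 38.9, 44.2 and 75.0 CPM, against 16.7% of all genes called lower. With IFN-γ 4 of 5 fell, to a sum of 97.8, 60.1 and 57.8 CPM, against 16.0% of all genes. Of these *Ms4a1* (-1.22) was lost without unstimulated replicate a or IFN-γ replicate 2 or 3 (-1.12, -1.11 and -1.05), and 5 fell without unstimulated replicate c. With IL-4 3 of 4 tested rose, against 5.97% of all genes called higher, and the sum went from 24.3, 23.6 and 43.2 CPM in cells d, e and f to 63.1, 58.1 and 68.1 CPM. *Ighm* led the list in all 18 libraries, and no marker of it was at 0 in any. Each rise with IL-4 was lost without some library. *Cd79b* (1.44) was lost without unstimulated replicate d or IL-4 replicate 1, 2 or 3 (1.39, 1.55, 1.51 and 1.23), *Ighm* (0.90) without IL-4 replicate 1, 2 or 3 (0.86, 0.93 and 0.90) and *Ms4a1* (1.76) without IL-4 replicate 1 or 3 (1.80 and 1.504), while 4 rose without unstimulated replicate f.

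Some mast cell and erythroid markers rose with both stimuli together. The 6 mast cell markers summed to 9.62, 8.18 and 7.38 CPM in unstimulated cells a, b and c, 10.1, 6.64 and 34.3 CPM with *E. coli*, 30.0, 14.3 and 12.99 CPM with IFN-γ and 36.3, 71.8 and 66.1 CPM with both. *Tpsb2* led them in these libraries, except in replicates 2 and 3 of the combination, where *Cma1* did, and *Mcpt4*, *Fcer1a*, *Kit* and *Cpa3* were each at 0 in some. *Cma1* and *Tpsb2*, the 2 tested, both rose with the combination, against 23.9% of all genes called higher. These calls were kept in every alternative that tested them, with the rule on a factor of 2 left aside. *Tpsb2* also rose with IFN-γ (1.51), a call lost without unstimulated replicate a, b or c or IFN-γ replicate 1 (1.76, 1.46, 1.41 and 1.10). Their sum was 8.57, 6.60 and 7.33 CPM in cells d, e and f and 17.2, 7.94 and 20.7 CPM with IL-4. Erythroid markers summed to 45.5, 76.2 and 71.8 CPM in cells a, b and c, 59.95, 58.8 and 127 CPM with *E. coli*, 136, 106 and 53.3 CPM with IFN-γ and 122, 157 and 109 CPM with both, where 3 of 4 tested rose. *E. coli* replicate 3 and IFN-γ replicate 1 lay within the range of the combination. *Hbb-bs* led that list in all libraries but unstimulated replicate c, where *Hba-a2* did, and *Alas2* was the only marker at 0 in any. The rise of *Hbb-bs* with both (1.24) was kept, that of *Hba-a1* (1.22) was lost without unstimulated replicate a or replicate 2 of the combination (0.98 and 0.98), and that of *Hbb-bt* (1.30) without unstimulated replicate a or b or replicate 1 or 2 of the combination (0.97, 1.39, 1.18 and 1.20). Calls were gained with *E. coli* without its replicate 1, where 1 rose, and with IFN-γ without unstimulated replicate b or IFN-γ replicate 3, where 1 and 2 rose. With IL-4 *Hbb-bt* fell (-0.84), but not in the fit of all 18 libraries (-0.83) or without unstimulated replicate d or e or IL-4 replicate 1, 2 or 3 (-0.83, -0.73, -0.825, -0.72 and -0.98). The part of B cell, mast cell and erythroid RNA in the results for *Marco*, *Cd36* and *Msr1* was not tested.

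5 of the 7 receptors passed the filter on low counts in each fit and were tested by the quasi-likelihood F test of edgeR. A gene was called at a p under 0.05 after Benjamini-Hochberg adjustment over all genes tested; *Scarb1* and *Cd163* did not pass. *E. coli* changed 3 of the 5: *Olr1* rose, while *Marco* and *Cd36* fell. Of all 9883 genes tested, 30.2% were called in this comparison, 13.5% higher and 16.7% lower. IFN-γ changed the same 3 genes, and all 3 rose, against 31.6% of all genes called, 15.6% higher and 16.0% lower. Under both stimuli together *Marco* and *Olr1* rose and *Cd36* fell, 3 of 5, against 49.0% of all genes, 23.9% higher and 25.2% lower. Under both stimuli a share of 3 in 5 is not far from that 49.0%. The shares under *E. coli* and IFN-γ lie above theirs, but rest on just 5 genes.

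IL-4 changed 4 of the 5 tested receptors: *Marco*, *Cd36* and *Msr1* fell and *Olr1* rose. Of 10556 genes tested, 10.3% were called, 5.97% higher and 4.35% lower. *Olr1* was thus the 1 tested receptor that rose under all 4 stimuli, and *Scarb2* was called under none of the 4 by edgeR. With a change by a factor of 2 required as well, *Olr1* with IFN-γ (0.99), *Cd36* with both (-0.83) and *Msr1* with IL-4 (-0.71) were no longer called, so that *Marco* alone was called under all 4. DESeq2 called *Scarb2* under none of the 4 either, and the unadjusted edgeR p of *Scarb2* was under 0.05 for 2 of them, *E. coli* and IL-4. The study calls its replicates biological, but neither labels nor methods say whether they are separate animals or separate cultures, so these p-values measure only the spread between the libraries, part of which may be technical. The comparisons with *E. coli*, IFN-γ and both share unstimulated replicates a, b and c.

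**Figure D2:**
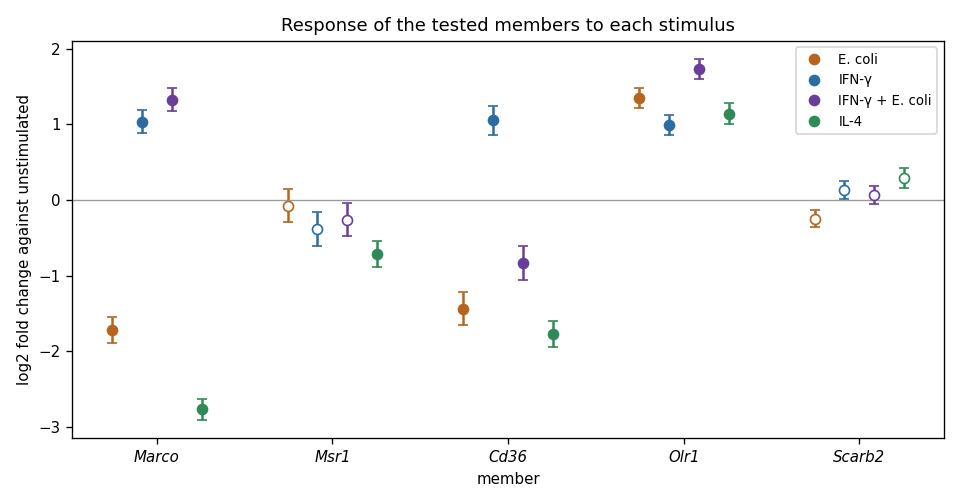
Log2 fold change against unstimulated cells of the same set (y axis) for the 5 tested receptors (x axis) and 4 stimuli (colours), with bars of 1 standard error. Filled points are called and open points are not; *Olr1* lay above 0 under every stimulus, and *Marco* ranged from -2.77 with IL-4 to 1.33 with IFN-γ and *E. coli* together.

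*Marco* (ENSMUSG00000026390) encodes a class A receptor that binds bacteria and inhaled or injected particles. Its level was 164, 161 and 159 CPM in unstimulated cells a, b and c and 45.8, 37.2 and 66.2 CPM with *E. coli*. It reached 336, 316 and 344 CPM with IFN-γ and 318, 432 and 466 CPM with both stimuli. The 3 *E. coli* libraries lay below, and the 6 libraries given IFN-γ above, every unstimulated library. The log2 fold change was -1.72 with *E. coli* (SE 0.17, edgeR adjusted p = 4.61e-07), 1.04 with IFN-γ (SE 0.16, 4.57e-05) and 1.33 with both (SE 0.16, 1.13e-06). The order of levels was *E. coli*, unstimulated, IFN-γ, both, and the last pair was not told apart, with a difference of 0.29 (SE 0.15, adjusted p = 0.245) and overlapping libraries.

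The effect of *E. coli* on *Marco* depended on IFN-γ. Without IFN-γ, *E. coli* took *Marco* down, and with IFN-γ present no such fall was seen. The test of that difference, the interaction of the 2 stimuli, gave a log2 value of 2.01 (SE 0.23, edgeR adjusted p = 5.59e-05). *Marco* was the only 1 of the 5 tested receptors called in the interaction, where 4.62% of all genes were called. Markers of other cells were called in it with either sign. All 5 B cell markers had the sign of *Marco*, among them *Cd79a* at 2.32 (SE 0.35, edgeR adjusted p = 6.43e-04). Their sum was 213, 191 and 116 CPM in unstimulated cells, 38.9, 44.2 and 75.0 CPM with *E. coli*, 97.8, 60.1 and 57.8 CPM with IFN-γ and 114, 128 and 124 CPM with both. *Ighm* was the most abundant of the 5 in all 18 libraries, and none was at 0 in any. Of 12 macrophage markers tested 1 was called, *Timd4* at 1.62 (SE 0.34, edgeR adjusted p = 0.00953), but 5 were called without *E. coli* replicate 3, where *Marco* was at 2.25. Of the opposite sign were *Ppbp* of the platelet list at -2.15 (SE 0.30, edgeR adjusted p = 4.23e-04), or -2.79 without unstimulated replicate c, and *S100a8* of the neutrophil list at -2.55 (SE 0.57, edgeR adjusted p = 0.0126), a call lost without unstimulated replicate a (-2.35). The part of RNA of these cells in the *Marco* interaction was not tested.

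In the second set *Marco* was at 204, 171 and 208 CPM in unstimulated cells d, e and f and at 30.7, 27.6 and 27.1 CPM with IL-4, so each IL-4 library lay far below each control. The log2 fold change of -2.77 (SE 0.14, edgeR adjusted p = 1.59e-05) was the largest in size of any tested receptor under any of the 4 stimuli.

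Macrophage genes moved beside *Marco* in part. With *E. coli*, 5 of the 12 markers tested fell, among them *Timd4* at -1.62, *Cd5l* at -1.35 and *Lyz2* at -0.91 on the log2 scale, and 9 fell without *E. coli* replicate 3. With IL-4, 6 of 13 fell, among them *Cd5l* at -1.16, but 2 without IL-4 replicate 1 or 2. With IFN-γ 3 of 12 rose, among them *C1qb* by 1.04, and 2 fell. Without unstimulated replicate a 1 rose and 0 fell, without c 1 and 1, and without IFN-γ replicate 1, 2 or 3 the falls were 0, 1 and 1. With both 1 rose, or 2 without unstimulated replicate b or replicate 2 of the combination, and 3 fell. Of all genes tested, 16.7% were called lower with *E. coli* and 4.35% with IL-4, while 15.6% were higher and 16.0% lower with IFN-γ and 23.9% and 25.2% with both. The median log2 fold change of the tested macrophage markers was -0.50 with *E. coli*, 0.06 with IFN-γ, 0.03 with both and -0.29 with IL-4, beside -0.02, -0.03, -0.04 and 0.00 over all genes tested.

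*Msr1* (ENSMUSG00000025044), the other class A receptor, takes up modified low-density lipoprotein and binds bacterial lipids. It stood at 231, 157 and 189 CPM in unstimulated cells a, b and c, and at 134, 143 and 278 CPM with *E. coli*. It was at 134, 158 and 153 CPM with IFN-γ and at 126, 168 and 191 CPM with both. Every pair of groups in the first set overlapped, so no order of their levels could be told from the spread. None of the comparisons within this set was called: the log2 fold change was -0.07 with *E. coli* (SE 0.22), -0.38 with IFN-γ (SE 0.22) and -0.26 with both (SE 0.22), with edgeR adjusted p of 0.837, 0.202 and 0.356. With the libraries of the 2 compared groups alone, IFN-γ gave -0.39 and was called (adjusted p = 0.0344).

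*E. coli* replicate 3 stood apart from the other *E. coli* libraries in *Msr1*, and without it the log2 fold change with *E. coli* was -0.47 and was called (edgeR adjusted p = 0.0381). Without unstimulated replicate a, or without *E. coli* replicate 1 or 2, it turned to 0.08, 0.12 and 0.10 and was not called. *E. coli* replicate 3 also had higher levels of markers of other cell types. Its C1q genes summed to 478 CPM, against 239 and 217 CPM in *E. coli* replicates 1 and 2, and its macrophage list without *Adgre1* summed to 1764 CPM, against 1094.5 and 1023 CPM. *Pf4* was at 452 CPM there and at 249 and 250.4 CPM in the other 2, and the mast cell list at 34.3 CPM, against 10.1 and 6.64 CPM. Whether these values bear on *Msr1* in that library was not tested.

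With IL-4, *Msr1* went from 201, 186 and 289 CPM in unstimulated cells d, e and f to 137, 131 and 145 CPM. The groups did not overlap, and replicate f was the highest. The log2 fold change was -0.71 (SE 0.17, edgeR adjusted p = 0.0228). This call was lost without unstimulated replicate f (-0.50, adjusted p = 0.0559) and without IL-4 replicate 1, 2 or 3 (-0.70, -0.68 and -0.76, adjusted p = 0.114, 0.110 and 0.0720).

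*Cd36* (ENSMUSG00000002944), a class B receptor, binds oxidised lipoproteins, long-chain fatty acids and thrombospondin. Its level was 84.0, 52.9 and 76.3 CPM in unstimulated cells a, b and c and 21.1, 19.9 and 41.2 CPM with *E. coli*. It was 134, 143 and 173 CPM with IFN-γ but 35.5, 40.3 and 45.2 CPM with both stimuli. All libraries given *E. coli*, with or without IFN-γ, therefore lay below the unstimulated ones, and all given IFN-γ alone lay above. The log2 fold change was -1.43 with *E. coli* (SE 0.22, edgeR adjusted p = 7.41e-05), 1.05 with IFN-γ (SE 0.20, 4.18e-04) and -0.83 with both (SE 0.22, 0.00470).

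In cells given IFN-γ, *E. coli* lowered *Cd36* as well, by -1.89 on the log2 scale (SE 0.22, edgeR adjusted p = 9.43e-06). The interaction of the 2 stimuli was -0.45 (SE 0.32, adjusted p = 0.523) and was not called. In order of level the groups were *E. coli*, both, unstimulated and IFN-γ. The 2 lowest overlapped, and their difference of 0.60 (SE 0.25, adjusted p = 0.0702) was not called, although without *E. coli* replicate 3 it was 0.98 (adjusted p = 0.00185), and without the filter on low counts 0.56 (0.0212). With the replicate number as a block this difference was called as well (0.60, edgeR adjusted p = 0.0186). IL-4 took *Cd36* from 96.0, 104 and 136 CPM to 28.0, 36.6 and 34.1 CPM, again without overlap, a log2 fold change of -1.77 (SE 0.18, adjusted p = 2.23e-04).

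*Scarb2* (ENSMUSG00000029426) encodes LIMP-2, a class B protein of the lysosomal membrane that carries glucocerebrosidase to the lysosome. It varied little: 90.7, 75.5 and 78.3 CPM in unstimulated cells a, b and c, and 74.1, 63.8 and 69.6 CPM with *E. coli*. It was at 94.5, 86.5 and 88.3 CPM with IFN-γ and at 86.3, 84.3 and 87.1 CPM with both. The *E. coli* libraries lay just below the other groups, without overlap, and the remaining groups overlapped. Against unstimulated cells the log2 values were -0.25 (SE 0.12), 0.13 (SE 0.12) and 0.07 (SE 0.12), with edgeR adjusted p of 0.118, 0.417 and 0.654. In the second set it was at 85.7, 77.2 and 93.0 CPM in unstimulated cells and 104, 97.3 and 112 CPM with IL-4, a log2 value of 0.29 (SE 0.13, adjusted p = 0.195).

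*Scarb1* (ENSMUSG00000037936), the class B receptor for high-density lipoprotein, was near the detection limit. Its counts were 12, 3 and 8 in unstimulated cells a, b and c, 11, 7 and 6 with *E. coli*, 4, 2 and 2 with IFN-γ and 3, 4 and 5 with both. In the second set they were 2, 10 and 16 in unstimulated cells and 6, 12 and 6 with IL-4. The IFN-γ libraries lay below the *E. coli* libraries in CPM, and all other pairs overlapped. In an edgeR fit without the filter *Scarb1* was called in 0 of 11 comparisons, and its unadjusted p was under 0.05 in 0 of them; DESeq2 was run only on genes that passed the filter. A difference in *Scarb1* was not detectable at this depth.

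*Olr1* (ENSMUSG00000030162), the class E receptor also known as LOX-1, binds oxidised low-density lipoprotein. It stood at 37.7, 49.7 and 52.1 CPM in unstimulated cells a, b and c and at 121, 112 and 119.6 CPM with *E. coli*. It was at 88.4, 86.5 and 102 CPM with IFN-γ and at 166, 145 and 152 CPM with both. The 4 groups did not overlap. The log2 fold change was 1.34 with *E. coli* (SE 0.13, edgeR adjusted p = 3.36e-07), 0.99 with IFN-γ (SE 0.14, 1.61e-05) and 1.74 with both (SE 0.13, 3.95e-09).

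The order of *Olr1* levels was unstimulated, IFN-γ, *E. coli*, both. The middle step was small: IFN-γ differed from *E. coli* by -0.35 (SE 0.12, edgeR adjusted p = 0.0461), a call lost in 10 of 14 alternative analyses, among them DESeq2 (-0.34) and the fits without *E. coli* replicate 1, 2 or 3 (-0.33, -0.39 and -0.34) or IFN-γ replicate 1 or 2 (-0.32 and -0.29). The upper step, both against *E. coli*, was 0.39 (SE 0.12, adjusted p = 0.0179), lost without *E. coli* replicate 2 (0.35) or replicate 1 of the combination (0.34) and without the filter on low counts (0.35, adjusted p = 0.0730). The interaction of IFN-γ and *E. coli* was -0.60 (SE 0.18, adjusted p = 0.0683), not called, but called without unstimulated replicate c (-0.71, adjusted p = 0.0477) and without the filter (-0.67, 0.0473). With IL-4 *Olr1* went from 59.2, 51.3 and 47.4 CPM to 115, 125 and 106 CPM, a log2 fold change of 1.14 (SE 0.14, adjusted p = 7.90e-04), with every IL-4 library above every control.

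**Figure D3:**
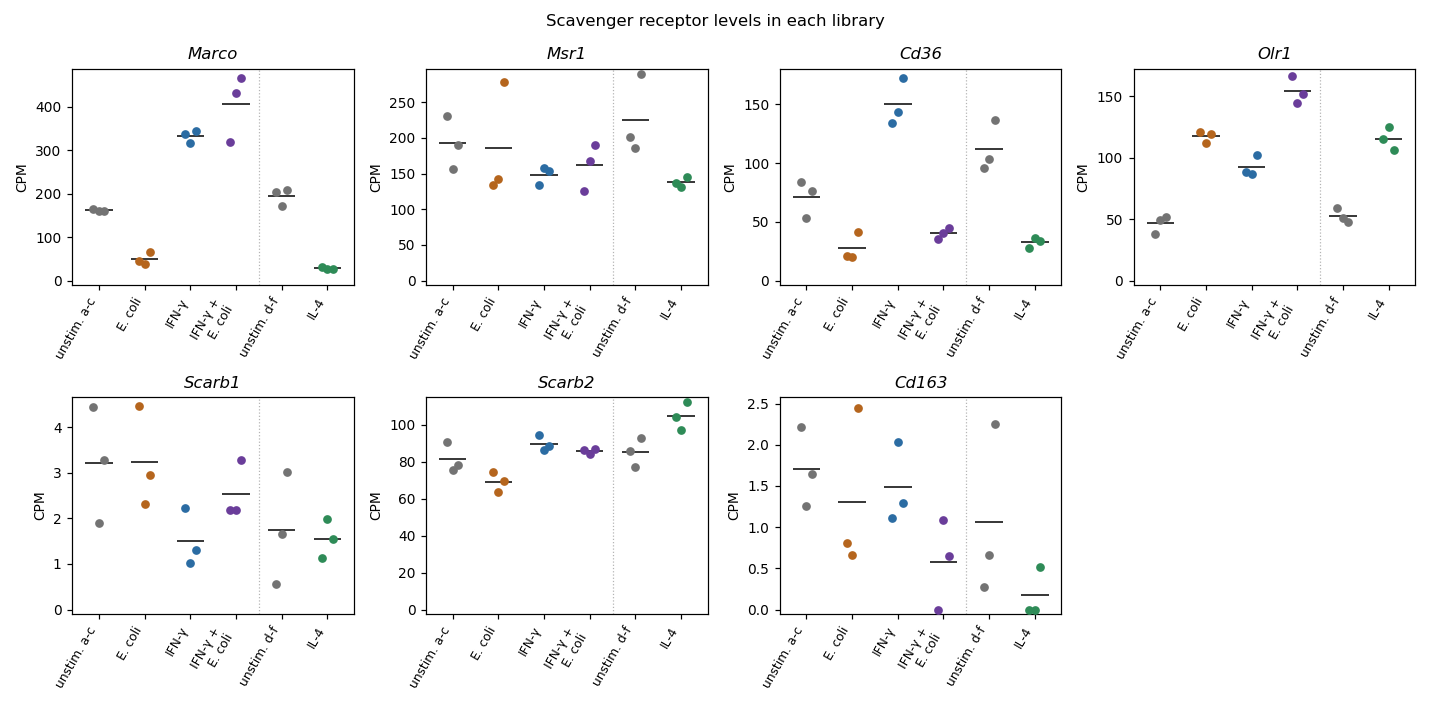
CPM of each of the 7 receptors in every library, 1 panel per gene with its own y axis starting at 0. Points are libraries, black lines are group means, and the dotted line parts the first set from the second; *Marco* and *Cd36* were lower with *E. coli* and with IL-4, and *Olr1* was higher in all 4 stimulated groups than in its controls.

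*Cd163* (ENSMUSG00000008845), a class I receptor that clears complexes of haemoglobin and haptoglobin, was barely detected. Its counts were 6, 2 and 4 in unstimulated cells a, b and c, 2, 2 and 5 with *E. coli*, 2, 4 and 2 with IFN-γ and 0, 2 and 1 with both. Unstimulated cells d, e and f had 1, 4 and 12 counts, and IL-4 libraries 0, 0 and 2. A count of 3 corresponded to between 0.996 and 2.18 CPM in the first set and between 0.495 and 0.830 CPM in the second, so the groups given both stimuli or IL-4 were at or under that floor in each library. The libraries given both stimuli lay below those given none or IFN-γ alone, and the IL-4 group overlapped its controls. In an edgeR fit without the filter *Cd163* was called in 0 of 11 comparisons, with an unadjusted p under 0.05 in 1 of them, IL-4 against unstimulated.

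Genes that act after *Cd163*, in the breakdown of haem and the export and storage of its iron, were measured as well. IFN-γ raised 4 of 6 tested and both stimuli 5 of 6, with medians of 0.97 and 1.21 on the log2 scale. *Hmox1*, the enzyme that opens the haem ring, rose by 1.32 with IFN-γ (SE 0.17, edgeR adjusted p = 8.79e-06) and by 1.95 with both (SE 0.17, 3.58e-08). With IL-4, 4 of 6 fell, at a median of -1.03, among them *Hmox1* at -2.14 (SE 0.18, adjusted p = 9.61e-05) and *Slc40a1*, the iron exporter, at -1.64 (SE 0.20, 7.82e-04). With *E. coli* alone *Ftl1* rose and *Slc40a1* fell by 0.39, at a median of -0.01. The *Slc40a1* call was lost in 9 of 12 alternatives, among them the fits without unstimulated replicate b or c (-0.29 and -0.32) or *E. coli* replicate 1, 2 or 3 (-0.41, -0.40 and -0.34). With both stimuli *Fth1* (0.49) was lost without unstimulated replicate a or c or replicate 1 of the combination (0.36, 0.42 and 0.42). Its counts lay at the ceiling, and a correction for that ceiling, chosen after seeing the data, gave 1.38. Up to 2 genes of this list rose with *E. coli* under alternatives other than a left-out library, and up to 5 rose with IFN-γ when a library was left out. The alternatives counted for this and the other gene lists leave aside the rule on a factor of 2. Of all genes tested 30.2%, 31.6%, 49.0% and 10.3% were called with *E. coli*, IFN-γ, both and IL-4. Over all genes tested the medians were -0.02, -0.03, -0.04 and 0.00 in the comparisons with *E. coli*, IFN-γ, both and IL-4.

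The stimulated groups were also set against each other, which asks what each stimulus adds to the other. Both against IFN-γ alone changed 2 of the 5 receptors, where 12.2% of all genes were called: *Cd36* fell, as above, and *Olr1* rose by 0.74 (SE 0.13, edgeR adjusted p = 5.79e-04). Both against *E. coli* alone changed 3, where 32.8% of all genes were called: *Marco* rose by 3.05 (SE 0.17, adjusted p = 1.50e-10), and *Olr1* and *Scarb2* by 0.39 and 0.31. The *Scarb2* value (SE 0.12, adjusted p = 0.0489) lost its call in 12 of 14 alternatives, among them DESeq2 (0.33) and each left-out library: 0.37, 0.25 and 0.32 without *E. coli* replicates 1, 2 and 3, and 0.32, 0.33 and 0.30 without those of the combination. IFN-γ against *E. coli* changed 4, where 25.6% of all genes were called: *Marco* by 2.76 (SE 0.17, adjusted p = 5.97e-10), *Cd36* by 2.49 (SE 0.22, 5.11e-08), *Scarb2* by 0.38 (SE 0.12, 0.0217) and *Olr1* by -0.35. The *Scarb2* call was lost without *E. coli* replicate 2 (0.32) or IFN-γ replicate 1 (0.34), which left 2 of the 4 calls, and without the filter on low counts (0.37, adjusted p = 0.105).

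Whether IL-4 acted differently from the other stimuli was tested on the responses themselves, in 1 fit of all 18 libraries with each unstimulated trio as its own control. The IL-4 response differed from that to *E. coli* in 2 of 5 receptors, where 28.1% of all genes were called. *Marco* differed by -1.07 (SE 0.23, edgeR adjusted p = 0.00153), so it fell further with IL-4, and *Scarb2* by 0.52 (SE 0.16, 0.0186). The *Scarb2* call was lost without unstimulated replicate a (0.44, adjusted p = 0.0743) or *E. coli* replicate 2 (0.46, 0.0659), and without the filter on low counts (0.50, 0.166). *Cd36*, at -0.36 (SE 0.31, adjusted p = 0.419), and *Olr1*, at -0.22 (SE 0.19, 0.415), were not called in this comparison, and *Cd36* was at 0.02 without *E. coli* replicate 3.

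Against the IFN-γ response, IL-4 differed in 2 of 5, where 27.8% of all genes were called: *Marco* by -3.84 (SE 0.23, edgeR adjusted p = 1.26e-10) and *Cd36* by -2.86 (SE 0.29, 2.17e-07). Both had risen with IFN-γ and fallen with IL-4. Against the response to both stimuli it differed in 3 of 5, where 39.2% of all genes were called. These were *Marco* at -4.15 (SE 0.23, adjusted p = 1.39e-11), *Cd36* at -0.997 (SE 0.31, 0.0137) and *Olr1* at -0.65 (SE 0.19, 0.00804), the last rising less with IL-4 and not called without the filter (-0.61, 0.0501). *Msr1* was not called in any of these 3 tests, with log2 values of -0.66, -0.36 and -0.52 (SE 0.31, 0.31 and 0.31, adjusted p = 0.12, 0.420 and 0.204), although without *E. coli* replicate 1 the first was -0.85 and called (0.0499), as it was without the filter on low counts (-0.67, 0.0125). The sets also differ in file layout and perhaps in library preparation, which cannot be told apart from the stimuli in these differences.

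Other scavenger receptors numbered 21, of which 9, among them *Stab2*, *Scara5* and *Cd5*, had at most 3 counts in every library. 7 were tested in the first set and 10 in the second. *E. coli* lowered 3 of 7, including *Clec7a*, the β-glucan receptor, at -0.88 (SE 0.13, edgeR adjusted p = 4.13e-05), and *Cd68* at -1.09 (SE 0.22, 7.42e-04). With both stimuli 1 rose, *Cxcl16*, by 1.53 (SE 0.25, 5.19e-05), and 2 fell, and with IFN-γ 2 rose. With IL-4 1 rose and 1 fell of 10. Of all genes, 30.2% were called with *E. coli*, 49.0% with both, 31.6% with IFN-γ and 10.3% with IL-4. *Clec7a* with IL-4 went from 170.4, 208 and 197 CPM to 438, 432 and 418 CPM, a log2 fold change of 1.16 (SE 0.12, adjusted p = 2.50e-04), opposite to *Marco*. With the rule on a factor of 2 left aside, 5 of these 10 calls held in every alternative, 2 of them falls with *E. coli*. *Lrp1* with *E. coli* (-0.81) was lost in 6 of 12, among them those without unstimulated replicate a or c or *E. coli* replicate 1 or 3 (-0.80, -0.59, -0.69 and -0.74). The rises with IFN-γ, *Cd44* by 0.42 and *Clec7a* by 0.37, were both lost without IFN-γ replicate 3 (0.31 and 0.35). *Cd44* was also lost without unstimulated replicate a (0.38), and *Clec7a* without b, c or IFN-γ replicate 1 (0.31, 0.35 and 0.37) and with at least 10 counts required in every library (0.33). *Cd68* with both (-0.55) was lost in 6 of 12, among them those without unstimulated replicate a or c or replicate 1 or 2 of the combination (-0.55, -0.49, -0.37 and -0.48), and with IL-4 (-0.71) without IL-4 replicate 1 or 2 (-0.68 and -0.67). Calls were also gained: 3 rose and 1 fell with IFN-γ without its replicate 2, and 2 rose with both without unstimulated replicate c and with IL-4 without e or f. The medians were -0.81 with *E. coli*, 0.34 with IFN-γ, 0.22 with both and -0.22 with IL-4.

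Lipoprotein receptors and lipid efflux genes are the partners of scavenger receptors in cholesterol handling. *E. coli* raised 3 and lowered 2 of 12, IFN-γ raised 6 and lowered 2, both raised 6 and lowered 1, and IL-4 raised 2 and lowered 2, against 30.2%, 31.6%, 49.0% and 10.3% of all genes called. *Abca1*, which exports cholesterol, went from 57.4, 41.5 and 99.2 CPM to 420.0, 400 and 361 CPM under both stimuli, a log2 fold change of 2.55 (SE 0.20, edgeR adjusted p = 5.36e-09). The rises in the first set held in every alternative. Those with IL-4, *Abca1* by 0.54 and *Abcg1* by 0.60, were both lost without IL-4 replicate 1 (0.58 and 0.65), 2 (0.49 and 0.61) or 3 (0.55 and 0.51). *Npc2*, which fell with *E. coli* (-0.48), was lost without unstimulated replicate b or *E. coli* replicate 1 or 2 (-0.40, -0.37 and -0.36). *Lrp8*, which fell with IFN-γ (-0.89), was lost in 5 of 11 alternatives, among them those without unstimulated replicate a or IFN-γ replicate 2 or 3 (-0.60, -0.79 and -0.81). With both, 2 fell without unstimulated replicate c. The medians were -0.07, 0.50, 0.38 and -0.11 in the order *E. coli*, IFN-γ, both and IL-4.

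Of 12 tested genes for handling fatty acids, which *Cd36* brings into cells, 5 rose and 4 fell with *E. coli*, 4 and 1 with IFN-γ and 7 and 1 with both, and of 13 tested with IL-4 2 rose and 2 fell, against 30.2%, 31.6%, 49.0% and 10.3% of all genes called. *Dgat2*, which makes triglyceride, had 2, 2 and 3 counts in unstimulated cells a, b and c and 76, 87 and 64 with *E. coli* (edgeR adjusted p = 8.12e-09). *Plin2*, a lipid droplet coat protein, rose by 1.53 with both stimuli (SE 0.13, adjusted p = 1.48e-08), where *Cd36* fell. *Pparg*, a fatty acid sensor known to drive *Cd36* in macrophages, had 1, 1 and 0 counts in unstimulated cells d, e and f and 38, 30 and 14 with IL-4 (adjusted p = 0.00158), while *Cd36* fell. Every alternative that tested them called 4 of the 5 rises and 3 of the 4 falls with *E. coli*, 3 of 4 and 0 of 1 with IFN-γ, 6 of 7 and 0 of 1 with both, and 1 of 2 and 0 of 2 with IL-4. The fall of *Plin3* with IFN-γ (-0.69) was lost without unstimulated replicate a or c or IFN-γ replicate 2 or 3 (-0.67, -0.64, -0.57 and -0.65), and with both (-0.66) without unstimulated replicate c or replicate 3 of the combination (-0.61 and -0.51). The falls with IL-4, *Acsl1* at -1.30 and *Plin2* at -0.48, were both lost without unstimulated replicate f (-1.19 and -0.41), IL-4 replicate 1 (-1.16 and -0.41) or 2 (-1.13 and -0.48), and *Plin2* without 3 (-0.55). The rise of *Dgat2* with IL-4 was lost without IL-4 replicate 1 (edgeR adjusted p = 0.0510), where its log2 value was 2.47, against 2.48 with all libraries. The medians were -0.23, 0.43, 0.81 and 0.00, and with the genes at or under 3 counts in a whole group set at that floor -0.23, 0.35, 0.81 and 0.00.

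Receptors and bridging proteins for dying cells include *Thbs1*, thrombospondin 1, a ligand of *Cd36*. *Thbs1* went from 232, 213 and 297 CPM in unstimulated cells to 814, 803 and 1045 CPM with *E. coli*, 990, 1041 and 1329 CPM with IFN-γ and 2159.5, 1832 and 2346 CPM with both. Its log2 fold changes were 1.84 (SE 0.16, edgeR adjusted p = 7.17e-08), 2.17 (SE 0.16, 6.52e-09) and 3.09 (SE 0.16, 2.71e-11). With both stimuli its counts, 2977, 3368 and 3583, lay close to the ceiling on counts that the libraries of that set show, and a correction for it, chosen after seeing the data, gave 4.07. *Itgb3*, an integrin chain that works with *Cd36* in uptake, fell by 2.04 with *E. coli* (SE 0.16, 2.38e-08) and by 3.16 with both (SE 0.19, 1.87e-10). Of 9 tested, 1 rose and 4 fell with *E. coli*, 3 rose and 4 fell with IFN-γ and with both, and 1 rose and 1 fell with IL-4, at medians of -0.72, -0.14, -0.04 and -0.21 and against 30.2%, 31.6%, 49.0% and 10.3% of all genes called. Every alternative that tested them called all of the rises and falls with both, but 3 of the 4 falls with *E. coli*, and 2 of the 3 rises and 3 of the 4 falls with IFN-γ. The gene that fell with IL-4 was *Thbs1* (-0.65), a call lost without unstimulated replicate f (-0.54) or IL-4 replicate 1, 2 or 3 (-0.70, -0.74 and -0.52), and 2 rose without replicate f.

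Of 11 tested signalling partners and adaptors of the receptors, 5 rose with *E. coli*, 4 rose and 1 fell with IFN-γ, 4 rose with both and 4 fell with IL-4, against 30.2%, 31.6%, 49.0% and 10.3% of all genes called. *Cd9*, a tetraspanin found with *Cd36*, rose by 1.23, 1.80 and 1.95 with *E. coli*, IFN-γ and both (SE 0.17 each, edgeR adjusted p = 1.89e-05, 2.10e-07 and 2.88e-08). Its counts in the stimulated libraries of the first set, 2539 to 3370, lay near the ceiling, and the correction chosen after seeing the data gave 1.82, 2.47 and 2.66. *Tlr6*, which pairs with *Cd36* in sensing lipids, rose by 2.01 with IFN-γ (SE 0.18, 1.12e-07) and by 2.04 with both (SE 0.18, 3.85e-08). None of the 4 falls with IL-4 held in every alternative. Without unstimulated replicate f 2 were called, without IL-4 replicate 1 just 1, and without 2 or 3 none. *Tlr6* (-0.96) was at -0.87 and -0.91 without IL-4 replicates 2 and 3, *Tlr2* (-0.79) at -0.77 without unstimulated replicate f and -0.77, -0.85 and -0.77 without IL-4 replicates 1, 2 and 3, and *Cd9* (-0.70) at -0.70, -0.80 and -0.61 without those 3. The fall with IFN-γ was that of *Tlr2* (-1.29), lost without unstimulated replicate a or c or IFN-γ replicate 2 or 3 (-0.96, -1.27, -1.09 and -0.95) and at -1.997 without IFN-γ replicate 1. Without unstimulated replicate a 3 rose with *E. coli*, and without b 1 fell with both. The medians were 0.18, 0.30, 0.21 and -0.26.

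Of 10 transcription factors known to act on these genes, 3 rose and 4 fell with *E. coli*, 4 and 2 with IFN-γ, 6 and 2 with both and 1 and 3 with IL-4, against 30.2%, 31.6%, 49.0% and 10.3% of all genes called. None of the 3 falls with IL-4 held in every alternative: 0 were called without IL-4 replicate 1 or 2 and 1 without 3. *Cebpa* (-1.43) was at -1.36 and -1.26 without IL-4 replicates 1 and 2, and *Hif1a* (-0.59) at -0.66 without unstimulated replicate f and -0.64, -0.62 and -0.51 without IL-4 replicates 1, 2 and 3. With *E. coli*, *Cebpa* (-1.29) lost its call in 5 of 11 alternatives, among them those without unstimulated replicate a or b or *E. coli* replicate 1 or 2 (-1.29, -1.18, -1.28 and -0.87), and 2 genes fell without the last. Without unstimulated replicate a or IFN-γ replicate 1, 1 fell with IFN-γ, and without replicate 2 of the combination 1 fell with both. *Cebpb* rose with *E. coli* by 0.51, and by 1.10 with the correction for the ceiling on counts, chosen after seeing the data. Up to 4 of the 10 rose with *E. coli* under alternatives other than a left-out library. The medians were -0.05, 0.23, 0.45 and -0.02.

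The genes most like each receptor over the 12 libraries of the first set were found by Pearson correlation of log2 CPM among 9882 other genes. These are descriptions: the libraries share their groups and controls. *Marco* was most like *Calhm6* (r = 0.993), *Psmb9* (0.983) and *St3gal5* (0.981), and *Olr1* most like *Acpp* (0.986), *Egr2* (0.983) and *Ifitm1* (0.983). *Cd36* was most like *Clec5a* (0.942), *Lmo2* (0.934) and *Gbp2b* (0.930), and *Scarb2* most like *Pag1* (0.904), *Vwa5a* (0.899) and *Satb1* (0.897). *Msr1* was most like *Pf4* (0.890), *Snapc2* (0.858) and *Ift22* (0.841). Among the receptors themselves r ran from -0.415 for *Cd36* with *Olr1* to 0.859 for *Marco* with *Scarb2*. For *Marco* with *Msr1*, the class A pair, it was -0.115.

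The 7 genes lie on 4 chromosomes of GRCm38. *Marco* is at chr1:120474538-120505024, *Msr1* at chr8:39581685-39642673, *Cd36* at chr5:17781690-17888801 and *Olr1* at chr6:129485244-129507165, all on the minus strand. *Scarb1* is at chr5:125277087-125341094 and *Scarb2* at chr5:92441314-92506833, both on the minus strand, and *Cd163* at chr6:124304656-124330527 on the plus strand. All are protein-coding, and none of them shares exonic bases with another annotated gene or has a transcript stretch of 200 bases or more at 95% identity or more to another gene. Reads of these genes thus had no annotated near-copy to be split with.

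Promoter sequences from RefSeq on GRCm38.p6, the 250 bases before the start, were matched for 5 of the 7: *Marco*, *Cd36*, *Olr1*, *Scarb2* and *Cd163*. They were searched on both strands for short motifs bound by factors of myeloid cells and of these stimuli, and each is given with its share among 32841 promoters of the same length. GAGGAA, in 23.3% of all, was in *Marco* and *Olr1*; AGGTCA, in 14.0%, in *Cd36* and *Olr1*; and TGANTCA, in 6.75%, in *Olr1*. TGACNNNGC, in 10.2%, and the NF-κB consensus, in 7.25%, were in *Scarb2*. TTC and GAA with 3 bases between them (7.02%) or with 4 (5.85%), ACGTG (16.6%) and TTGCNNAA (9.57%) were in no window of the 5, which says only that those letters are not in these 250 bases. No match overlapped a match of another motif, and a match is not a binding site.

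The windows of *Marco*, *Cd36* and *Olr1* are shown because these 3 genes were called under all 4 stimuli when no size of change was required. All 3 are on the minus strand, at chr1:120505025-120505274, chr5:17835897-17836146 and chr6:129507166-129507415, and the *Cd36* window lies inside the annotated span of the gene. Capitals mark the matches: GAGGAA in *Marco*, AGGTCA on the opposite strand in *Cd36*, and 3 in *Olr1*. The first of these in *Olr1* is AGGTCA, the next is GAGGAA on the opposite strand, and the last is TGANTCA.
Marco: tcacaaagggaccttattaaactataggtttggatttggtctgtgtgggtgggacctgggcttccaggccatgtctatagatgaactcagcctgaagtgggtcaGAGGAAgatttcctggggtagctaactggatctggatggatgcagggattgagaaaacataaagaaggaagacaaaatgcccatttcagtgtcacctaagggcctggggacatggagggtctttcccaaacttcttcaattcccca
Cd36: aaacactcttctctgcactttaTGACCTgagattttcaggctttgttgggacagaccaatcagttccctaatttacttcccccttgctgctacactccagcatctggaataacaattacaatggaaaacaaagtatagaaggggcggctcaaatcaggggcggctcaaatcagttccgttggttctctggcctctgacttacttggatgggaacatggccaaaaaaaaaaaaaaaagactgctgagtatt
Olr1: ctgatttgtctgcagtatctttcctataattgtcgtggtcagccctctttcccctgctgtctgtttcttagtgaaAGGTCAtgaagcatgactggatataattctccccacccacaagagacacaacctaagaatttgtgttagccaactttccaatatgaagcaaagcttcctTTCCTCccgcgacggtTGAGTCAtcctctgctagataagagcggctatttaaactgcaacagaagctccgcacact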

How the data were processed

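The authors deposited counts per Ensembl gene for each library, without normalization. The study's methods and the submitters' processing notes name TopHat2 2.1.0, STAR 2.7.2a, fastp 0.20.1 and HTSeq 0.6.1 on GRCm38, without tying each to its libraries; collapsing of molecular identifiers was not stated. Entries naming no gene, 21.1% to 39.4% of counts in the first set, were left out. No gene exceeded 4095 counts there, as 6-base identifiers would give, while counts reached 191131 in the second set, so the sets may differ in unit. R 4.3.3 with edgeR 4.0.16 (filterByExpr, TMM, quasi-likelihood F test, Benjamini-Hochberg over all genes tested) was fitted to 12, 6 and 18 libraries; SE came from the fold change and F and is approximate. Alternatives were DESeq2 1.42.0 or its size factors, no filter, at least 10 counts in every library, a factor of 2, each library left out, compared groups alone, all 18 libraries, a replicate block and, chosen after seeing the data, a ceiling correction. Genes named from each list were up to 3 called genes of largest change per stimulus; not all are described. Marker genes given by name, and some genes named for a lost call, were picked after their values were seen. Members and lists were chosen with earlier results of these data known. Positions are from GENCODE M21. Floors cover counting error only.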

Additional observations from a re-analysis of the deposited data

Results flagged for a closer look

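The effect of *E. coli* on *Marco* differed between cells with and without IFN-γ. The log2 effect of *E. coli* was -1.72 without IFN-γ and 0.29 with it, a difference of 2.01 (SE 0.23, edgeR adjusted p = 5.59e-05). It lay between 1.82 and 2.25 in all alternatives tried for it, and the 3 libraries given *E. coli* alone were below every other library of the first set. In the same test 4.62% of all genes were called. All 5 B cell markers were called with the same sign, among them *Cd79a* at 2.32, and 1 of 12 macrophage markers, *Timd4*, at 1.62, or 5 without *E. coli* replicate 3. With the opposite sign *Ppbp* of the platelet list was at -2.15 (-2.79 without unstimulated replicate c), and *S100a8* of the neutrophil list at -2.55, not called without unstimulated replicate a (-2.35). Their part in the difference was not tested.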

How the results depend on the processing

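Of 450 log2 values of the tested receptors with a library left out, 418 kept their direction and their side of the threshold, 21 lost a call, 4 gained one and 7 turned direction. Of 375 under other alternatives, 346 kept both, 24 lost a call, 5 gained one and 0 turned direction. The values that turned were not called: *Msr1* with *E. coli* (-0.47 to 0.12 over left-out libraries; 0.08 without unstimulated replicate a, 0.12 and 0.10 without *E. coli* replicates 1 and 2), *Msr1* in both against IFN-γ (-0.01 to 0.27; -0.013 without replicate 3 of both), *Msr1* in both against *E. coli* (-0.37 to 0.22) and in IFN-γ against *E. coli* (-0.49 to 0.10), and *Cd36* in the IL-4 against the *E. coli* response (-0.56 to 0.019), the last 3 at their highest without *E. coli* replicate 3. Receptors called ran from 1 to 3 over left-out libraries in both against *E. coli*, 2 to 4 in IFN-γ against *E. coli*, 1 to 2 in the interaction and 1 to 3 in the IL-4 against the *E. coli* response. With a change by a factor of 2 required, the calls of *Olr1* with IFN-γ (0.99), *Cd36* with both (-0.83) and *Msr1* with IL-4 (-0.71) ended, and 1 was called in both against IFN-γ, 1 in both against *E. coli*, 2 in IFN-γ against *E. coli*, 1 in the IL-4 against the *E. coli* response and 1 in the IL-4 response against that to both. Without a filter on low counts, 2 were called in IFN-γ against *E. coli*, 2 in the interaction and 2 in both against *E. coli*, where *Olr1* and *Scarb2* were lost (edgeR adjusted p = 0.0730 and 0.290) and *Cd36* gained (0.0212). *Msr1* was gained (0.0125) and *Scarb2* lost (0.166) in the IL-4 against the *E. coli* response, and *Olr1* was lost (0.0501) in the IL-4 response against that to both. Apart from the stricter rule on size, the cause was not tested. Whether replicate numbers pair the stimulated libraries is not stated in the labels. Residual correlations of same-numbered libraries exceeded 0.1 in 1 of 3, 1 of 3 and 2 of 3 pairs. They ran from -0.016 to 0.17 for *E. coli* with IFN-γ, 0.071 to 0.16 for *E. coli* with both and -0.045 to 0.33 for IFN-γ with both. With 3 pairs each, these values cannot settle whether the libraries were paired. With the replicate number as a block, 2, 3 and 4 receptors were called in both against IFN-γ, both against *E. coli* and IFN-γ against *E. coli*; in the second of these *Cd36* (0.60, edgeR adjusted p = 0.0186) was gained and *Scarb2* (0.31, adjusted p = 0.0548) lost. A ceiling correction, chosen after seeing the data, ended the call of *Olr1* in IFN-γ against *E. coli* (-0.35, adjusted p = 0.0526). *Scarb1* and *Cd163*, with 67 and 32 counts in all in the first set and 52 and 19 in the second, did not pass the filter on low counts; whether depth or low expression kept them from it was not tested.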
